A study of Sus scrofa with 6 samples.

Results

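The crypt epithelial progenitors described here are cells of the neonatal piglet ileum that held messenger RNA of OLFM4 or SPINK1 and stayed under set limits for a few genes of enterocytes, enteroendocrine cells, goblet cells and leukocytes. They numbered 311 of the 71547 barcodes that passed a minimum of 1000 UMIs, 500 genes and less than 25% of UMIs on the 13 mitochondrial genes, which is 0.435%. A UMI is a molecular tag that counts 1 captured mRNA molecule. A member needed at least 5 UMIs of EPCAM, KRT8 and VIL1 together, at least 5 UMIs of OLFM4 and SPINK1 together, and more of these than of the enterocyte genes APOC2, RBP2 and MEP1A. It also needed fewer than 10 UMIs of CHGA and CHGB, fewer than 10 of MUC2, FCGBP and CLCA1, and at most 1 of PTPRC, the leukocyte gene CD45. Members were chosen by the UMI counts of these 14 genes, so their own levels are given as a description only.

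Single-cell RNA-seq was run on male Large White piglets at day 0 (birth) and at days 1, 3, 7, 14 and 21, with 1 library per age. The piglets were born at term, suckled their dams and were given no antibiotics, vaccines or feed additives, and no group was treated. The methods describe several piglets per age and 1 chip channel per age, so that a library may pool animals and no animal can be told from another. Scraped mucosa was loosened with EDTA and taken apart with TrypLE, which favours epithelium. The 6 libraries held 77391932 to 100348769 UMIs over 20648 genes, and from the first age to the last the epithelial gate was passed by 2536, 855, 74, 154, 27 and 1 cells. The libraries labelled as ileum of days 14 and 21 thus held almost no cells with the epithelial genes EPCAM, KRT8 and VIL1. The labels and title name the ileum, while the short design note of the series names the cecum, and the labels were followed. With 1 library per age no test between ages was possible, and each interval below covers counting error only.

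The intestinal epithelium is renewed from stem cells at the base of the crypt. Under Wnt and Notch signals these cells divide, their daughters multiply further as transit-amplifying cells, and the daughters then become absorptive enterocytes or secretory cells while they move up the villus. OLFM4, a secreted glycoprotein, is a widely used marker of crypt base cells in human and pig gut, and SPINK1 is a secreted inhibitor of trypsin.

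Cells that passed as crypt progenitors were found in the libraries of days 0 to 7 only. Their number was 206 of 9641 barcodes kept on day 0, or 2.14% (exact Clopper-Pearson interval at 95%, 1.86% to 2.45%), and 76 of 10324 on day 1, or 0.736% (0.580% to 0.921%). On day 3 there were 16 of 10531 (0.152%) and on day 7 there were 13 of 11976 (0.109%). None of 15691 barcodes on day 14 and none of 13384 on day 21 passed, which allows shares of up to 0.0191% and 0.0224% by the limit of 3 counts over each total. The exact intervals drawn in the plot of shares reach 0.0235% and 0.0276%. Set against the gated epithelial cells of the same library, the 4 shares were 8.12%, 8.89%, 21.6% (12.9% to 32.7%) and 8.44% (4.57% to 14.0%). The smaller share of all barcodes after birth therefore went with fewer epithelial cells of any kind, and among epithelial cells the shares of days 0, 1 and 7 lay within each other's intervals. Fewer crypt cells in the tissue and fewer crypt cells freed from it cannot be told apart. No member barcode was shared between libraries, and 5 of the members' barcodes also passed the minimum in another library, against 589 of 70958 distinct barcodes overall.

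**Figure D1:**
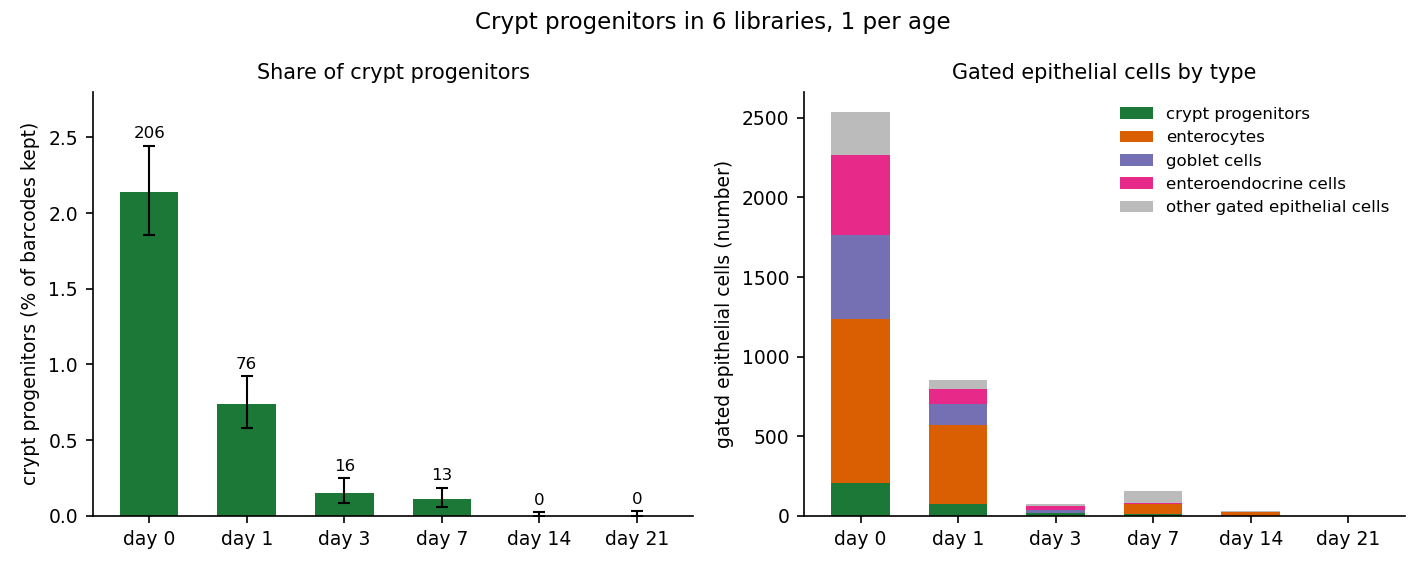
Left, crypt progenitors as a percentage of the barcodes kept in each of the 6 libraries (y axis, bars from 0, exact 95% intervals, cell numbers above the bars). Right, the number of gated epithelial cells in each library, stacked by type. The share was 2.14% on day 0 and 0.736% on day 1, and no cell passed on days 14 and 21, where the stacked bars are also close to 0.

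Members were deep cells. Over days 0, 1, 3 and 7 their median depth was 18447, 22123, 14585 and 11785 UMIs. Enterocytes of days 0, 1 and 7 had 16960, 20126 and 9289, and goblet cells of days 0 and 1 had 8170 and 17174. Most lay well inside the gate, with over 20 UMIs of OLFM4 and SPINK1 in 220 of 311 cells and 5 or 6 in 7 cells. Just outside, 17 cells had 3 or 4 UMIs and met all else. A further 67 cells had 5 or more and met all else but were not above the enterocyte genes. Of these 67 cells, 5 were level with those genes or up to 2 UMIs below them. Another 27 cells with 5 or more were above the enterocyte genes but had under 5 UMIs of EPCAM, KRT8 and VIL1. Among secretory cells, 82 goblet cells and 30 enteroendocrine cells also held 5 or more UMIs of OLFM4 and SPINK1. No doublet caller was run and doublets were kept.

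OLFM4 (chromosome 11, 26252948 to 26375531, Sscrofa11.1) stood at 13.4 UMIs per 10000 UMIs in the summed members of day 0 (exact Poisson interval at 95%, 13.1 to 13.8), and at 42.1 (41.2 to 43.0), 22.6 (20.7 to 24.7) and 6.79 (5.56 to 8.20) in those of days 1, 3 and 7. Barcodes with 100 UMIs or fewer, which stand for RNA free in the suspension, held 1.66 on day 0 and 2.44 on day 1. SPINK1 (chromosome 2, 149072652 to 149079529) stood at 10.3 (9.99 to 10.6), 28.4 (27.6 to 29.1), 39.5 (36.9 to 42.2) and 18.7 (16.6 to 21.0) in the same order. In day 3 members 2 of 16 cells stood out in SPINK1, at 185 and 161 UMIs per 10000, and the order of days by these sums differed from that by the median cell.

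The members did not share both genes evenly. On day 0, 125 of 206 cells held both, 65 only OLFM4 and 16 only SPINK1. On day 1 the numbers were 62, 12 and 2 of 76 cells, and on day 3 they were 12, 4 and 0 of 16. Day 7 was unlike these, with 5 cells holding both, 1 only OLFM4 and 7 only SPINK1. Per cell, the medians of SPINK1 were 1.98, 28.3, 10.5 and 15.1 UMIs per 10000 over days 0, 1, 3 and 7, and those of OLFM4 were 11.9, 34.4, 20.1 and 0. Across cells of 1 library, the rank correlation of the pair was −0.08 over the 206 cells of day 0 and 0.53 over the 76 cells of day 1, with no p because cells share a library and because the gate demands the sum of both genes.

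**Figure D2:**
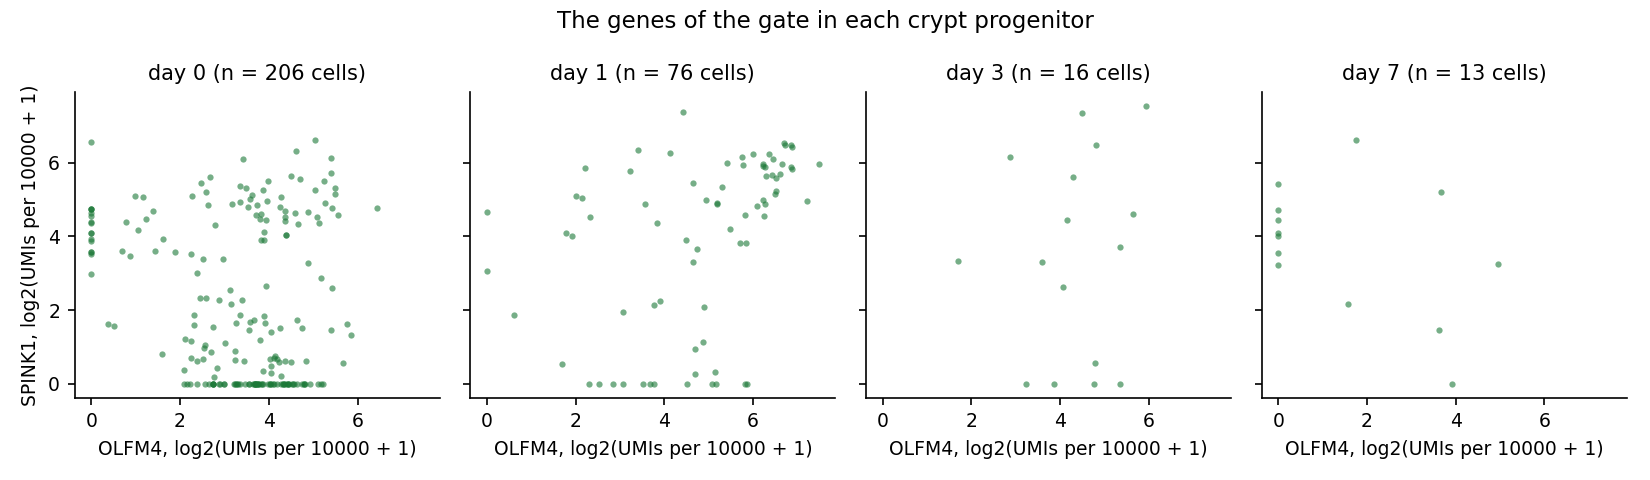
Each point is 1 crypt progenitor, with OLFM4 on the x axis and SPINK1 on the y axis, both as log2(UMIs per 10000 + 1), in the libraries of days 0, 1, 3 and 7. On day 0 many cells lie on the x axis with OLFM4 and no SPINK1 (65 of 206). On day 1 most cells sit at the upper right, and on day 7, 7 of 13 cells lie on the y axis with SPINK1 alone.

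The label was checked against epithelial and stem cell genes that the gate did not use. KRT19, an epithelial keratin, had UMIs in 205 of 206 members on day 0 and 75 of 76 on day 1, and CDH1, which encodes E-cadherin, in 148 and 69. The gate already demanded other epithelial RNA, so KRT19 and CDH1 bear on epithelial identity only and not on the crypt. The 23 stem cell genes listed for the crypt base summed to 12.1 UMIs per 10000 in members of day 0 (11.8 to 12.4), and to 12.3 (11.8 to 12.7), 15 (13.4 to 16.7) and 11.7 (10.1 to 13.6) in those of days 1, 3 and 7. Enterocytes held 1.92 and 2.19 on days 0 and 1, goblet cells 9.47 and 8.57, and free RNA 4.10 and 3.36. The stem cell sum therefore lay above enterocytes and free RNA in both libraries, and above goblet cells by less. The day 7 sum rested in part on HOPX, described below. LGR5, ASCL2 and SMOC2 had a UMI in 1, 2 and 2 of the 13 day 7 members, so that sum does not show the same mix of genes as on days 0 and 1. The median OLFM4 level of day 7 members was 0, and 4 of the 13 were rich in hormone RNA. Their S phase genes summed to 9.77 UMIs per 10000 against 18.5 in free RNA. The name crypt progenitors is thus not borne out for the day 7 members as a group, and there it stands for cells that passed the gate.

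RNA of other lineages was looked for by lists. At least 1 UMI of the lymphocyte genes CD79B, MS4A1, JCHAIN or CD3E was in 67 of 311, by library in 39, 15, 6 and 7. The B lineage list of 14 genes summed to 1.24, 1.29, 2.85 and 4.82 UMIs per 10000 over days 0, 1, 3 and 7, where free RNA held 16.6, 20.1, 53.7 and 85.2. The T and NK list of 16 genes summed to 0.793 on day 0 and to 0.0919 or less at the later ages. Without cells holding any of these lymphocyte UMIs or a PTPRC UMI, 156, 61, 7 and 5 members remained, so the day 3 and day 7 sums rest largely on cells with some lymphocyte RNA, whose part in those values was not tested. The myeloid list of 14 genes summed to 0.127 to 0.506 UMIs per 10000 over the 4 libraries, and the stromal list of 16 genes to between 0 and 0.871, with all 16 genes at 0 on day 7. Erythroid and mast cell lists were at 0.0919 or below in each library. Hormone RNA was the exception: 4 of the 13 members of day 7 held 10 or more UMIs of NTS, PYY, GCG, CCK and SST together, against 2 of 206, 1 of 76 and 0 of 16 at the earlier ages. On day 7 the peptide YY gene PYY had 2038 UMIs in 5 members, and GCG, which encodes glucagon-like peptides, had 3815 UMIs, of which 62.0% lay in 1 cell. The enteroendocrine list without CHGA and CHGB accordingly summed to 417 UMIs per 10000 on day 7, against 9.93, 0.300 and 0.0919 at the 3 earlier ages. The part of such cells in the day 7 values was not tested.

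Members were next compared with enterocytes and with goblet cells of the same libraries, from UMI counts summed over the cells of a type. Only days 0 and 1 had sums of at least 20 cells for all 3 types, so the fit rested on 6 sums of 2 libraries with 2 residual degrees of freedom. Enterocytes (1032 and 493 cells) held at least 5 UMIs of APOC2, RBP2 and MEP1A, and at least as many as of OLFM4 and SPINK1. Goblet cells (526 and 132 cells) held at least 10 UMIs of MUC2, FCGBP and CLCA1. The gate drew these types apart on genes of this same contrast, so a gene passing the threshold went along with the gate and is not separate evidence that the types differ. The threshold was an adjusted p of 0.05 by the edgeR quasi-likelihood test.

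Against enterocytes, 1819 of 11779 genes were higher in crypt progenitors (15.4%) and 2239 were lower (19%), with a median log2 difference of −0.01 over all genes tested. At least 4-fold differences made up 574 of the higher and 671 of the lower genes. Without the library term 936 were higher and 1326 lower, and with sums of at least 10 cells, which add days 3 and 7, 692 and 942 without day 1 and 1025 and 1234 without day 0. Among genes with at least 0.5 UMIs per 10000 in the higher type, the 15 largest differences upward included crypt stem cell genes, secreted proteins and complement genes, with the selenoprotein SELENOW at 4.26 ± 0.24 and FAM26F at 4.33 ± 0.26 on the log2 scale. The 15 downward included apolipoproteins and brush border enzymes.

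Stem cell genes went with the gate. SMOC2, a secreted matricellular protein of the crypt base, had 0.468 and 0.669 UMIs per 10000 in members on days 0 and 1 against 0.00435 and 0.00624 in enterocytes. The log2 difference was 6.63 ± 0.36 (approximate SE), and day 3 members held 2.62. ASCL2 (chromosome 2, 1558459 to 1560112), a transcription factor that maintains crypt stem cells, had 1.15 and 0.581 against 0.0218 and 0.00624, a log2 difference of 5.82 ± 0.29. LGR5, the receptor for R-spondins that marks cycling stem cells, was scarce, with 0.172 and 0.113 in members against 0.00242 and 0.00446, a log2 difference of 5.35 ± 0.48. In each of the 3 genes both member values exceeded both enterocyte values. Of the 22 stem cell genes tested, 15 were higher and none lower, with a median log2 difference of 2.68, where 15.4% of all genes were higher and 19% lower. The others that passed were CDCA7, MSI1, EPHB2, CD44, TNFRSF19, SOX9, SLC12A2, MEX3A, EPHB3, ZNRF3, LRIG1 and RNF43. RGMB, AXIN2, PROM1, BMI1, HOPX, TCF7L2 and CLU did not pass, and AQP4 was too low to be tested. HOPX, often used as a marker of reserve stem cells, stood at 0.0557, 0.0443 and 0 UMIs per 10000 on days 0, 1 and 3, and at 3.36 on day 7, where all its 53 UMIs lay in 5 of the 13 members.

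By cell, LGR5 had a UMI in 23.8% of the day 0 members (exact interval 18.1% to 30.2%) and in 26.3% of the day 1 members (16.9% to 37.7%). Enterocytes, which should lack it, reached 0.484% and 0.811% at median depths that differed little from those of members. ASCL2 had a UMI in 57.8% of day 0 members and 40.8% of day 1 members, against 2.81% and 1.01% of enterocytes. SMOC2 had one in 30.6% and 36.8%, against 0.581% and 0.406%. Each of the 3 genes was detected in a larger share of members than of enterocytes in both libraries. The intervals over cells, which cover counting error only, did not overlap. After each cell was thinned to 1000 UMIs, LGR5 remained in 1.46% and 2.63% of members, values that rest on 3 and 2 cells, and in 0% and 0.203% of enterocytes, with intervals that overlapped on both days. Thinned ASCL2 remained in 9.22% and 2.63% of members against 0.291% and 0%, with overlap on day 1. Thinned SMOC2 remained in 4.37% and 6.58% against 0.0969% and 0%, without overlap. Thinned goblet cells held LGR5 in 0.190% and 0.758%, ASCL2 in 0.570% and 0.758%, and SMOC2 in 0.570% and 2.27%. Their intervals overlapped those of members on day 1 for all 3 genes, and on day 0 for LGR5.

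Genes of dividing cells separated members from enterocytes across nearly the whole list. The S phase list and the G2/M list, 97 genes together, summed to 61.3 UMIs per 10000 in members on day 0 and 69.3 on day 1. Enterocytes held 18.6 and 14.8, so that members were 3.30-fold and 4.68-fold higher, and goblet cells held 42.4 and 34.8. Of 43 S phase genes 42 were higher in members than in enterocytes, with a median log2 difference of 2.56, and of 53 G2/M genes tested 50 were higher, with a median of 2.83, and none was lower in either list. Over all genes 15.4% were higher and 19% lower. MKI67, a protein of mitotic chromosomes, had 0.555 and 0.728 UMIs per 10000 in members against 0.0831 and 0.0491 in enterocytes, a log2 difference of 3.13 ± 0.31. PCNA, the sliding clamp of DNA polymerase, had 1.44 and 1.52 against 0.314 and 0.190, a log2 difference of 2.48 ± 0.25. A sign-flip test over 2 libraries cannot give a two-sided p below 0.5, so none is given for the sum.

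The cycle genes varied widely among members. Per cell, the sum ran from 3.99 to 172 UMIs per 10000 on day 0 with a median of 35.6, and from 7.15 to 233 on day 1 with a median of 58.3. MKI67 or TOP2A had a UMI in 37.9% of day 0 members (31.2% to 44.9%) and 61.8% of day 1 members (49.98% to 72.8%). These intervals did not overlap but cover counting error only. After thinning to 1000 UMIs the shares were 10.2% (6.42% to 15.2%) and 11.8% (5.56% to 21.3%). The thinned intervals of both ages overlapped, and the thinned enterocytes reached 1.84% and 1.22%. Thinned goblet cells reached 2.28% (1.18% to 3.95%) and 5.30% (2.16% to 10.6%), so that their interval overlapped that of members on day 1. On day 3, 7 of 16 members and 7 of 17 goblet cells had such a UMI without thinning, and on day 7, 5 of 13 members. The rank correlation of the cycle sum with OLFM4 was 0.13 over the cells of day 0 and −0.02 over those of day 1, given as a description. With SPINK1 it was −0.22 and 0.01. Free RNA held 28.4 and 25.5 UMIs per 10000 of cycle genes on days 0 and 1 but 59.9 and 59.1 on days 3 and 7, close to the members' 62.8 and 66.9 on those later days, and its part in them was not tested. The day 7 sum was carried by 2 of the 13 members, at 213 and 163 UMIs per 10000, while the other 11 lay between 7.36 and 30.6.

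**Figure D3:**
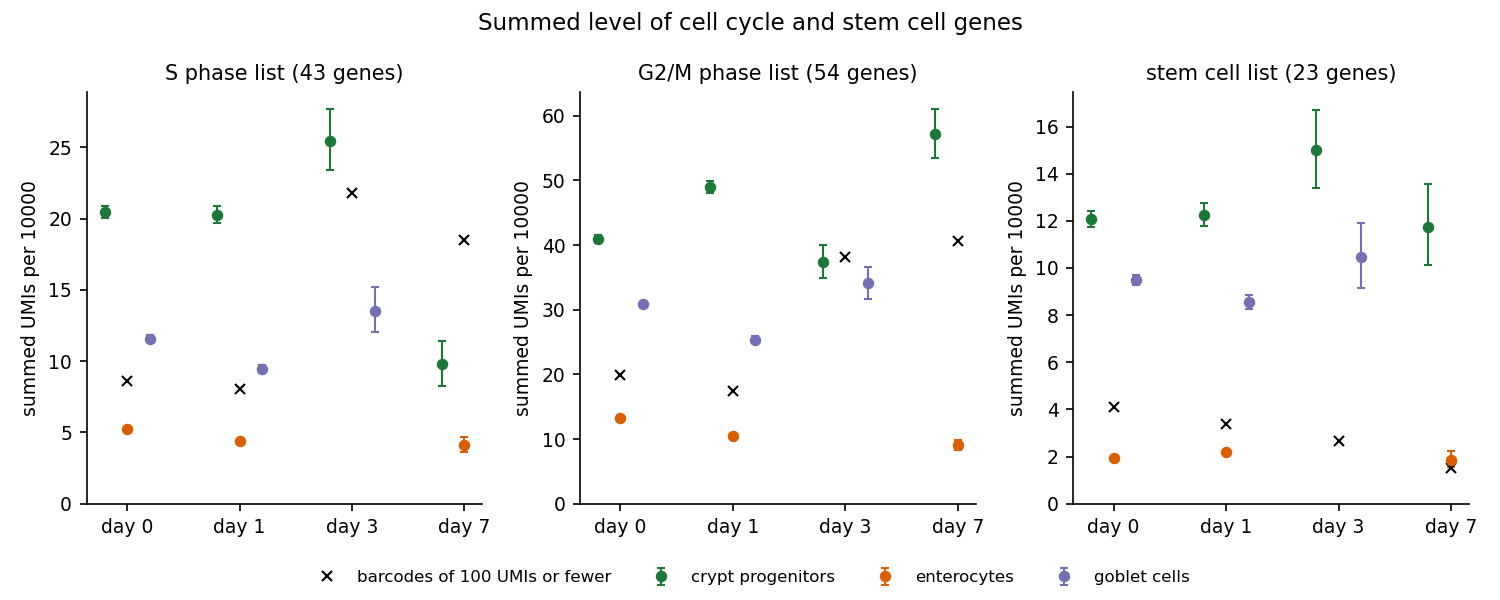
Summed UMIs per 10000 (y axis) of the S phase, G2/M and stem cell lists in crypt progenitors, enterocytes and goblet cells of days 0, 1, 3 and 7 where a type had at least 10 cells (no enterocytes on day 3, no goblet cells on day 7), with exact 95% Poisson intervals for counting error, and crosses for barcodes of 100 UMIs or fewer. Crypt progenitors lie above the enterocytes drawn in all 3 panels, and on days 3 and 7 the crosses come closer to crypt progenitors for cycle genes than for stem cell genes, and lie above them for S phase genes on day 7 and, within the interval, for G2/M genes on day 3.

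Genes of ribosome building, which accompanies growth before division, were in part higher. Of 24 ribosome biogenesis genes, 17 were higher in members than in enterocytes and none lower, with a median log2 difference of 1.29, where 15.4% of all genes were higher. Without the library term in the fit the number was 9. With sums of at least 10 cells it was 19, which became 10 of 23 without day 1 (median 0.86) and 20 of 24 without day 0 (median 1.98). NPM1, which encodes the nucleolar protein nucleophosmin, had 13.4 and 15.3 UMIs per 10000 in members and 8.64 and 5.64 in enterocytes. FBL, the methyltransferase of ribosomal RNA, had 2.68 and 2.96 against 1.03 and 0.376.

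Transcription factors went both ways. MYB, a factor of proliferating progenitors, had 0.435 and 0.453 UMIs per 10000 against 0.0208 and 0.00624 in enterocytes, a log2 difference of 4.83 ± 0.38. EHF, an epithelial factor of the ETS family, had 0.689 and 1.39 against 0.0454 and 0.0232, and MECOM, a zinc finger regulator, had 0.341 and 0.890 against 0.0126 and 0.00892. All of these were several-fold above enterocytes in both libraries. Of 25 listed epithelial transcription factors tested, 6 were higher (MYB, EHF, FOXA2, FOXA3, ID3 and MYC) and 6 lower (MAF, PRDM1, HNF4G, ID2 and ISX among them), with a median of −0.27. Over all genes 15.4% were higher and 19% lower, so these counts are near the background. PRDM1, known as BLIMP1 and a marker of the fetal and suckling enterocyte, had 0.303 and 0.305 in members against 0.996 and 1.35 in enterocytes. HNF4G, a factor of enterocyte differentiation, had 0.813 and 1.30 against 2.32 and 3.69. The intestinal master factor CDX2 did not pass, at 1.29 and 1.31 UMIs per 10000 in members and 1.53 and 2.07 in enterocytes.

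Of 16 genes of Notch signalling and lineage choice tested, 5 were higher in members (NEUROG3, ATOH1, NOTCH1, DLL3 and SOX4) and JAG1 was lower, with a median log2 difference of 0.67, against 15.4% higher and 19% lower over all genes. Against goblet cells none was higher and 5 were lower (SPDEF, ATOH1, HEY1, GFI1 and DLL4), with a median of −0.03. Over all genes 2.29% were higher and 7.26% lower than in goblet cells. NOTCH1, a Notch receptor, had 0.261 and 0.133 UMIs per 10000 against 0.0242 and 0.0116. JAG1, a Notch ligand, had 0.227 and 0.389 against 1.01 and 2.18. The Notch target HES1 was near 0 in every type, at 0.0156 and 0.00492 in members. NEUROG3, which starts the enteroendocrine programme, lay in very few members, in 4, 2 and 2 cells of days 0, 1 and 3, which held 46, 35 and 36 UMIs. On day 1 a single cell carried 94.3% of them. ATOH1, which starts the secretory programme, had 0.0579 and 0.00492 in members and 0.949 and 0.362 in goblet cells.

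Secreted proteins were also among the largest differences. SPAI-2, a porcine protease inhibitor of the trappin family that also inhibits the sodium pump, had 6.96 and 20.7 UMIs per 10000 in members against 0.102 and 0.236 in enterocytes, a log2 difference of 6.16 ± 0.32. Its UMIs were spread over 162 of 206 and 63 of 76 members. PI3 (elafin), of the same family, had 1.14 and 4.88 against 0.00870 and 0.512, a log2 difference of 4.39 ± 0.71 that did not pass without the library term (3.48, adjusted p = 0.161 by edgeR). How reads were divided between such related genes was not examined. REG4, a C-type lectin of the intestinal secretory lineage, had 21.2 and 13.0 against 0.482 and 0.217, and AGR2, a protein disulfide isomerase needed for mucin, had 0.488 and 2.08 against 0.117 and 0.0339. Goblet cells exceeded members in both, at 79.8 and 22.0 for REG4 and 78.4 and 35.5 for AGR2. AGR2 was uneven among members, with UMIs in 62 of 206 and 31 of 76 cells and 37.0% of the day 0 UMIs in 1 cell.

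Several of the named genes encode complement proteins or lectins. They were put together after their values were seen, with no list or test behind the group. FCN2 (chromosome 1, 274106276 to 274111970), which encodes a ficolin that starts the lectin pathway, had 112 UMIs per 10000 in members on day 0 (111 to 113), 54.4 on day 1 (53.4 to 55.5), 195 on day 3 (189 to 201) and 25.6 on day 7 (23.2 to 28.3). Enterocytes held 2.37 and 1.57 on days 0 and 1, goblet cells 77.0 and 21.9, and free RNA 20.8 and 4.19. On days 0 and 1, FCN2 had UMIs in 201 of 206 and 75 of 76 members. Free RNA can also place a UMI of such an abundant gene in a deep cell, and its part in these shares was not tested. The log2 difference from enterocytes was 5.22 ± 0.36.

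Other members of the cascade were at lower levels. C5 (chromosome 1, 260995662 to 261088868), the precursor of the inflammatory peptide C5a and of the membrane attack complex, had 0.666 and 1.11 UMIs per 10000 in members on days 0 and 1 and 0.0184 and 0.00535 in enterocytes, a log2 difference of 5.86 ± 0.46. C6, which joins the attack complex, had 1.23 and 1.53 against 0.108 and 0.0393. C9, which forms its pore, had 1.42 and 1.53 against 0.300 and 0.330 in enterocytes and 0.451 and 0.445 in goblet cells. Goblet cells held 0.351 and 0.556 of C5 and 0.673 and 0.564 of C6, so member values exceeded both other types in both libraries for all 3 genes, and C9 but not C5 or C6 passed the threshold against goblet cells. CFP (properdin, which stabilises the alternative pathway) had 3.23 and 2.30 against 0.215 and 0.126. The collectin SFTPD had 0.537 and 1.07 against 0.197 and 0.122. UMIs were spread over many members, in 97 and 46 cells for C5, 173 and 66 for C9, 179 and 63 for CFP and 115 and 58 for SFTPD on days 0 and 1.

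**Figure D4:**
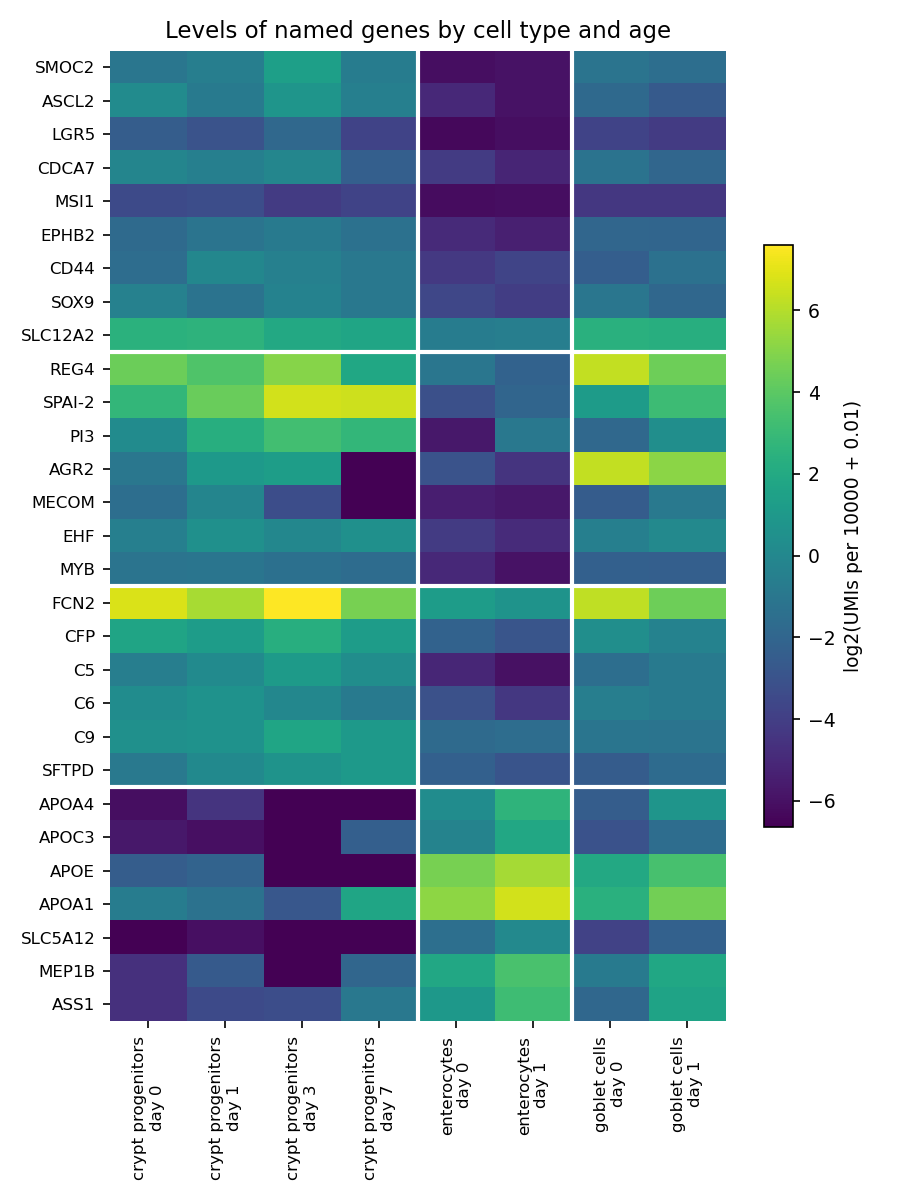
Heat map of log2(UMIs per 10000 + 0.01) for named genes (rows) in summed crypt progenitors of days 0, 1, 3 and 7, enterocytes of days 0 and 1 and goblet cells of days 0 and 1 (columns). From top to bottom the blocks hold stem cell genes, secreted proteins with transcription factors, complement and lectin genes, and absorptive genes. The upper 3 blocks are mostly darker in enterocytes than in crypt progenitors, and the lowest block is darker in crypt progenitors.

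Absorptive genes were lower than in enterocytes. The list summed to 32.5 and 37.5 UMIs per 10000 in members on days 0 and 1 against 167 and 312 in enterocytes, with 66.7 and 96.4 in free RNA, and to 97.1 in members of day 7. Of 36 genes of absorptive maturation tested, 32 were lower in members than in enterocytes and none higher, with a median log2 difference of −2.64, where 19% of all genes were lower. APOA1, an apolipoprotein of chylomicrons and HDL, had 0.617 and 0.403 UMIs per 10000 in members against 36.0 and 100 in enterocytes. APOA4 had 0.00446 and 0.0344 against 1.23 and 6.15, and APOE had 0.174 and 0.226 against 26.0 and 50.8. All 3 were lower than in enterocytes in both libraries, and the gate itself selected against APOC2, another apolipoprotein. SLC5A12, a lactate and short-chain fatty acid carrier, had 1 UMI in all members of both days and 0.357 and 1.03 UMIs per 10000 in enterocytes. The brush border peptidases ACE and MEP1B had 0.00446 and 0.0290 on day 0 against 0.548 and 3.71. ASS1, an enzyme of arginine synthesis in the suckling gut, had 0.0290 and 0.0836 against 1.94 and 9.09. The remaining named genes with lower levels were APOC3, BIRC7, C2H11orf86, ARSB, MELTF, GPX3, CTSZ and CPO, at log2 differences from −7.83 to −6.18.

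Epithelial defence genes were called in both directions, where 15.4% of all genes were higher and 19% lower. Of 17 tested, 7 were higher in members than in enterocytes (CCL28, DUOXA2, DUOX2, WFDC2, CXCL8, SAA3 and TFF3) and 4 were lower (CCL20, NOS2, DMBT1 and SLPI), with a median of 0.71. SAA3, an acute phase protein, had 2.35 and 2.49 UMIs per 10000 in members against 0.705 and 0.815. CCL28, which draws IgA-secreting plasma cells to mucosa, had 0.0178 and 0.0344 in members, 0.414 on day 3, and was at 0 in the enterocytes of days 0, 1 and 7. PIGR, the carrier of IgA across the epithelium, was near 0, at 0.0111 and 0.0148 in members.

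Against goblet cells the differences were fewer and depended more on the cells taken. Of 11779 genes, 270 were higher in members (2.29%) and 855 lower (7.26%), with a median log2 difference of −0.01, and 9 of the higher and 381 of the lower genes differed at least 4-fold. Of the goblet cells, 169 of 526 on day 0 and 78 of 132 on day 1 also held 5 or more UMIs of OLFM4 with SPINK1 or of the enterocyte genes. Without those cells 1456 genes were higher and 1646 lower, and without the library term 6 and 151. Whether doublets or cells in transition make up that overlap was not tested.

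ASCL2 led the genes higher in members than in goblet cells, with 1.15 and 0.581 UMIs per 10000 against 0.279 and 0.155, a log2 difference of 2.01 ± 0.24 (adjusted p = 0.00108 by edgeR, and 0.166 without the library term). It was followed by FAM26F with 1.95 ± 0.24, SFTPD with 1.78 ± 0.38, C9 with 1.74 ± 0.20, PRTFDC1 with 1.66 ± 0.34, PCLAF with 1.59 ± 0.26 and TYMS with 1.55 ± 0.30. PCLAF and TYMS serve DNA synthesis. Of these, C9 kept its call without the library term and the other 6 did not. FABP6, the ileal bile acid binding protein, was called at 1.49 ± 0.33, but 79.6% of its day 0 UMIs and 73.0% of its day 1 UMIs lay in 5 members, and the difference was −0.48 (adjusted p = 0.626 by edgeR) when sums of 10 cells were allowed and day 1 was left out.

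The lists are read here against the 2.29% of all genes higher than in goblet cells and the 7.26% lower. Of 22 stem cell genes, ASCL2, LGR5, CDCA7, CD44 and ZNRF3 were higher in members than in goblet cells and HOPX was lower, with a median of 0.45. Of 43 S phase genes 23 were higher, and of 53 G2/M genes 25 were higher, each with a median of 1.06 and none lower. Without the library term these numbers were 0 for the stem cell genes, 0 for S phase and 1 for G2/M, at medians of 0.46, 1.01 and 1.08. The S phase and G2/M counts were 13 and 11 with free RNA subtracted, and 36 and 42 without the goblet cells that held crypt or enterocyte genes. With sums of at least 10 cells they were 3 and 3 without day 0, and 6 and 3 without day 1. Of the stem cell genes, 11 of 19 were higher without those goblet cells (median 1.32) and 11 of 20 without the deepest cells (median 1.37). With free RNA subtracted 2 of 21 were higher (median 0.45). The counts thus moved with the libraries and cells taken, while the medians stayed above 0 in each of these settings. Ribosome biogenesis gave no call among 24 genes, with a median of 0.74. It gave 13 with only both types in the fit, 13 with no filter on low counts, 11 without those goblet cells, 9 without the deepest cells and 6 with sums of at least 10 cells. Of 17 defence genes, SAA3 was higher and 8 were lower (PLA2G2A, TFF3, LYPD8, LYZ, CXCL8, CCL20, S100A14 and WFDC2), with a median of −1.96. Of 25 transcription factors, MYB was higher, with a log2 difference of 1.23 ± 0.32, and FOXA3, KLF4 and PRDM1 were lower, counts near the shares over all genes.

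Genes of mucus secretion were lower in members, as the gate on mucins favours. All 11 goblet genes tested beyond the gate were lower, with a median log2 difference of −4.29, where 7.26% of all genes were lower. TFF3, the trefoil peptide of goblet cells, had 1.67 and 0.989 UMIs per 10000 in members against 488 and 303. SPDEF, the goblet transcription factor, had 0.0156 and 0.0148 against 2.86 and 3.36. PLA2G2A, a secreted phospholipase with antibacterial activity, had no UMI in members of days 0 and 1 and 0.764 and 0.639 UMIs per 10000 in goblet cells, while the day 3 members held 1.43. FAM3D, REP15, FER1L6, SPINK4 and MLPH were also lower, at log2 differences of −8.24 to −7.06. Absorptive genes gave 14 lower and 1 higher of 36 with a median of −1.32, where 7.26% of all genes were lower and 2.29% higher. With the goblet cells that held crypt or enterocyte genes left out, which itself selects on such genes, 15 were higher and 3 lower of 35 with a median of 0.94, so the direction of that list depended on the goblet cells taken.

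To see how members vary among themselves, the 68 cells with the highest OLFM4 level and the 68 with the lowest on day 0, and the 25 and 25 of day 1, were summed and compared within library by edgeR with 1 residual degree of freedom. OLFM4 and SPINK1 both chose the members, and a cell low in OLFM4 could enter only with enough SPINK1, so the split is given as a description and its calls are not separate evidence. The median OLFM4 level was 23.9 and 3.56 UMIs per 10000 on day 0 and 88.4 and 6.16 on day 1. SPINK1, the other gene of the gate, had 13.3 and 10.6 UMIs per 10000 in OLFM4-high and OLFM4-low cells on day 0 and 51.0 and 16.1 on day 1, a log2 difference of 1.05. Of 8068 genes tested, 31 were higher (0.384%) and 37 lower (0.459%) in the OLFM4-high cells, with a median log2 difference of 0.01. SPINK1 among the higher and RBP2 among the lower were genes of the gate. Without the library term no gene passed, and DESeq2 called 4 and 7.

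The genes with the largest differences upward were led by SPAI-2. It had 12.1 UMIs per 10000 in OLFM4-high and 2.72 in OLFM4-low cells on day 0, and 47.4 and 2.56 on day 1, a log2 difference of 3.22. C5 had 0.936 and 0.522 on day 0 and 1.96 and 0.293 on day 1, a log2 difference of 1.69. PI3 had 1.45 and 0.761, then 8.82 and 1.92. The direction was the same in both libraries for these 3 genes, and the gap was wider on day 1. IFI6, an interferon-induced protein, had 1.61 and 0.608, then 1.52 and 0.472, and was even between libraries. AGR2 had a log2 difference of 2.23 through day 1 alone (5.57 and 0.280), since day 0 had 0.335 and 0.364. SDF2L1, an endoplasmic reticulum chaperone component, had a log2 difference of 1.67 likewise through day 1 (3.64 and 0.650), with 0.221 and 0.205 on day 0. GPX2, a glutathione peroxidase of the crypt, was also among the 8 largest, at a log2 difference of 1.64.

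Several of the genes lower in OLFM4-high cells were carried by few cells. NTS, the hormone neurotensin, had a log2 difference of −6.99, yet 1 cell held 97.6% of all 4060 NTS UMIs of day 0. GUCA2A and GUCA2B, the peptides guanylin and uroguanylin, had log2 differences of −4.58 and −6.13. On day 0, 5 cells held 69.0% of the GUCA2A UMIs, and on day 1 single cells held 73.6% of GUCA2A and 95.1% of GUCA2B. SPIB, a transcription factor of microfold cells and B cells, had a log2 difference of −4.32, with 53.7% and 48.3% of its UMIs in 1 cell of each library. FABP1, a fatty acid binding protein of enterocytes, was spread over 116 members of day 0 and had 0.358 UMIs per 10000 in OLFM4-high and 2.59 in OLFM4-low cells, then 0.229 and 0.854, a log2 difference of −2.50. RETNLB, LTB and FABP6 made up the 8, FABP6 through day 1 alone (0.114 and 26.8), since day 0 had 4.80 and 5.22. None of 39 S phase genes and 52 G2/M genes tested passed in this split, at medians of 0.35 and −0.29. The 0.384% higher and 0.459% lower over all genes would give few or no calls in lists of this size. Of 23 absorptive genes tested, 6 were lower (FABP1, GUCA2A, GUCA2B, ANPEP and FABP6 among them), where 0.459% of all genes were, and the UMIs of GUCA2A, GUCA2B and FABP6 lay largely in few cells.

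Between birth and day 1, the only pair of ages with at least 50 members each, the day 1 library had higher levels of some defence genes in members. Of 2720 genes with at least 0.5 UMIs per 10000 at either age, 152 were at least 2-fold higher on day 1 (5.59%) and 26 at least 2-fold lower (0.956%), around a median log2 difference of 0.15. With TMM scaling, which removes that shift, the numbers were 114 and 40. REG3G, an antibacterial lectin of the gut, had 0.751 UMIs per 10000 on day 0 (0.673 to 0.836) and 44.5 on day 1 (43.6 to 45.4), a 59.3-fold difference, and 3.17 on day 3 and 177 on day 7. Enterocytes had 0.600, 29.3 and 199 on days 0, 1 and 7, goblet cells 0.276 and 32.7 on days 0 and 1, and free RNA 0.363 and 9.10. The difference was thus present in all 3 epithelial types, and in members the cells with a UMI were 33 of 206 on day 0, 60 of 76 on day 1 and 11 of 13 on day 7.

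DMBT1, a mucosal scavenger receptor, had 0.0379 (0.0221 to 0.0607) and 1.37 (1.22 to 1.54) on days 0 and 1, and enterocytes exceeded members with 0.538 and 5.12. GPX2 had 0.0245 (0.0122 to 0.0439) and 0.704 (0.593 to 0.829), with 0.736 on day 3, and was at most 0.0152 in enterocytes of days 0 and 1. LBP, the binding protein of bacterial lipopolysaccharide, had 0.261 (0.216 to 0.312) and 3.07 (2.84 to 3.33), an 11.8-fold difference, and was found in 68 of 206 and 67 of 76 members. These 3 genes were 11.8-fold or more higher in the day 1 library than in the day 0 library. Their intervals lay far apart but cover counting error only, with 1 library per age. BCL2L15, a relative of the BCL2 family, had 0.332 and 3.29, in 85 of 206 and 65 of 76 members. Free RNA held 0.185 and 1.33 of DMBT1, above members on day 0 and level with them on day 1, and 0.534 and 1.77 of BCL2L15, above members on day 0. It held 0.0298 or less of GPX2 and 0.413 or less of LBP. The 3 remaining genes were higher in free RNA than in members on both days. GBP1, an interferon-induced GTPase, had 0.165 and 1.86 in members and 0.219 and 2.16 in free RNA. COTL1, an actin-binding protein, had 0.0535 and 0.521 in members and 0.390 and 0.736 in free RNA. TGM3, a transglutaminase, had 2 UMIs in members on day 0 and 107 on day 1, or 0.526 UMIs per 10000, and 0.137 and 4.17 in free RNA. With the estimated free RNA subtracted, the members' levels on days 0 and 1 were 0.0283 and 1.37 for DMBT1, 0.161 and 1.84 for GBP1, 0.0331 and 0.509 for COTL1, and 0 and 0.355 for TGM3, so that day 1 remained the higher age.

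Lower levels on day 1 were fewer and in part rested on single cells. PHGDH, the first enzyme of serine synthesis, had 0.566 UMIs per 10000 on day 0 (0.499 to 0.640) and 0.0541 on day 1 (0.0270 to 0.0968). The intervals, which cover counting error only, did not overlap. On days 3 and 7 PHGDH was at 0.0460 and 0.0635. Its UMIs lay in 88 of 206 and 9 of 76 members, and enterocytes went from 0.296 to 0.0170. ADH1C, an alcohol dehydrogenase, had 4.32 (4.13 to 4.52) and 1.51 (1.34 to 1.68), and CLDN15, which forms sodium channels in tight junctions, had 3.52 (3.35 to 3.70) and 1.21 (1.06 to 1.37). On day 0, ADH1C had a UMI in 192 and CLDN15 in 193 of the 206 members, so nearly all members held them. FABP1 had 1.31 and 0.438, and NREP had 0.533 and 0.192. NTS had 9.05 and 0.0197, but the day 0 level was that of 1 cell. CCL5, a chemokine of T cells, had 0.548 and 0.0295, with 88.6% of its day 0 UMIs in 5 cells and 9.42 and 4.10 in free RNA, more than in members on both days. RETNLB had 0.646 and 0.0836, with 80.7% of its day 0 UMIs in 5 cells. Free RNA also exceeded members on both days for FABP1 (3.56 and 1.83), RETNLB (3.75 and 0.755) and NTS (23.2 and 2.43), and was likewise lower on day 1. Its part in FABP1, RETNLB and NTS was estimated by subtraction. This left 1.18 and 0.370 for FABP1, 0.456 and 0.0515 for RETNLB, and 8.17 and 0 for NTS. The subtraction may take away too much, since all UMIs of the genes that set it were counted as free RNA. CCL5 was among the 59 genes that set the amount subtracted. Its remainder of 0.00709 and 0 therefore gives no estimate of the part of free RNA in it.

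**Figure D5:**
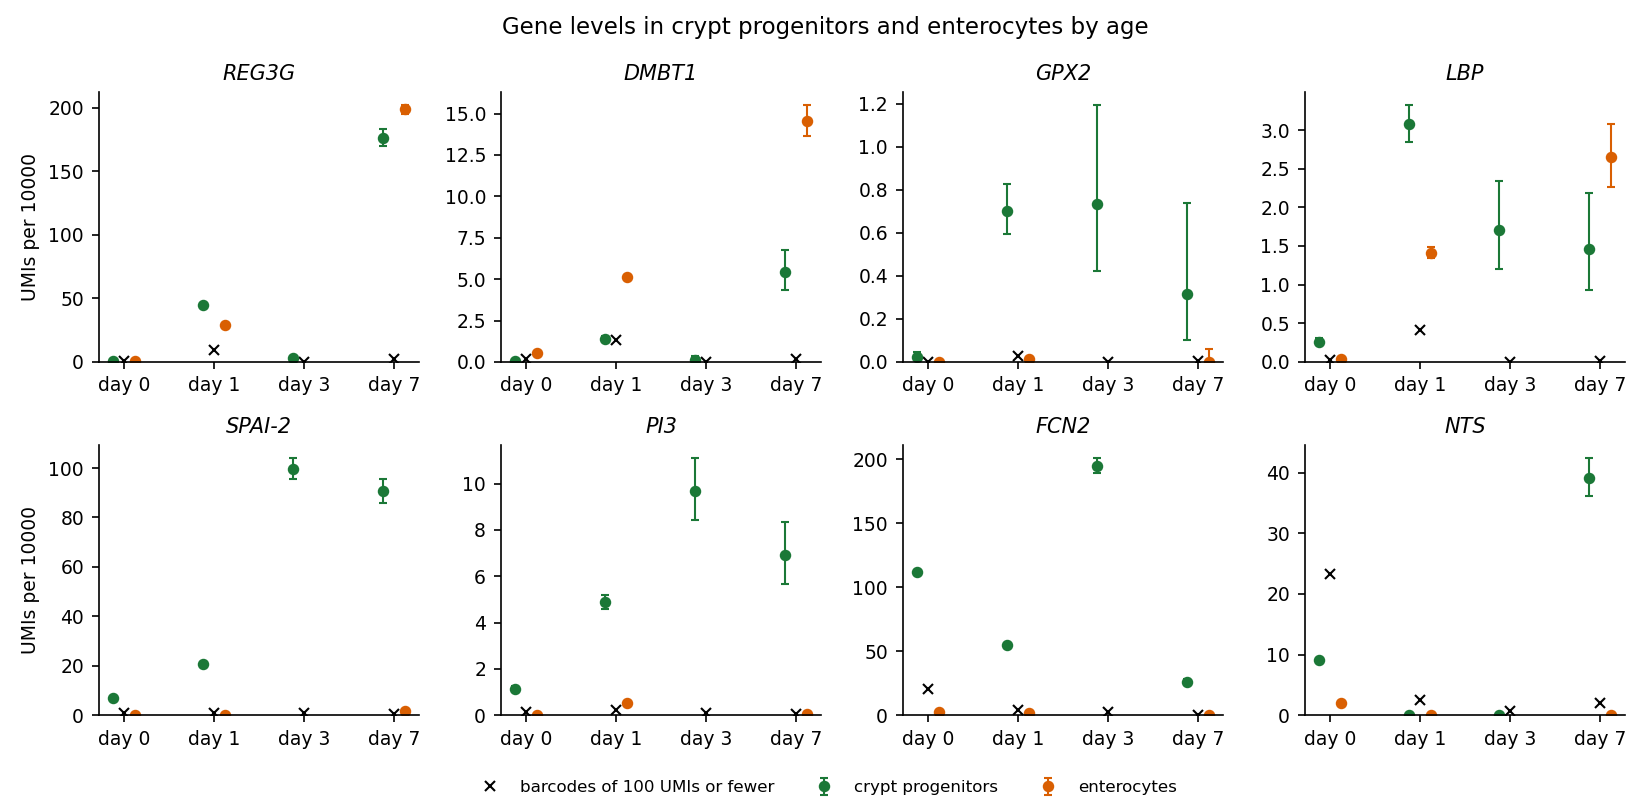
UMIs per 10000 (y axis, from 0, scales differ between panels) of 8 genes in crypt progenitors of days 0, 1, 3 and 7 and enterocytes of days 0, 1 and 7, with exact 95% Poisson intervals for counting error, and crosses for barcodes of 100 UMIs or fewer. REG3G reaches 177 in crypt progenitors on day 7 beside 199 in enterocytes, while SPAI-2, PI3 and FCN2 stay near 0 in enterocytes.

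Most of the genes past 2-fold were on none of the lists, which are read here against the 5.59% of all genes higher and 0.956% lower. Of 9 defence genes counted, 5 were at least 2-fold higher on day 1 (REG3G, DMBT1, CCL20, CXCL8 and S100A14) and SLPI was lower. CXCL8, which draws neutrophils, had 0.203 (0.163 to 0.249) and 1.73 (1.56 to 1.92), and CCL20, which draws cells bearing CCR6, had 0.0847 and 0.758. S100A14 had 0.990 and 2.50. None of 16 S phase genes, 27 G2/M genes or 19 ribosome biogenesis genes reached 2-fold in either direction, where those shares would give few or no genes in lists of this size. Among 13 transcription factors EHF was higher and ID1 and ID3 were lower, at 0.644 and 0.320 UMIs per 10000 for ID3. SPAI-2 went on from 20.7 on day 1 (20.1 to 21.3) to 99.8 on day 3 (95.6 to 104) and 90.7 on day 7 (86.0 to 95.5), and PI3 from 4.88 to 9.70 and 6.92, in sums of 16 and 13 cells that were not used for folds.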

How the data were processed

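The deposited matrices hold raw UMI counts per gene and barcode, which the authors made with Cell Ranger 3.1.0 and STAR on susScr11 (Sscrofa11.1) according to the submitters' processing notes. They are unfiltered and not normalized. The labels name a kit of the third version and the methods the second. The members, gene lists and comparisons were chosen with earlier results of these data known. Counts were summed over the cells of a type in a library (at least 20 cells) and compared by the edgeR 4.0.16 quasi-likelihood test in R 4.3.3, with TMM scaling, a filter on low counts, the library as a term and Benjamini-Hochberg adjustment over all genes tested. The 14 genes of the gate and the 13 mitochondrial genes were left out of the calls between types, and OLFM4 and the mitochondrial genes out of those of the OLFM4 split. With the library as a term, p-values rest on how differences within a library varied between 2 libraries, which also differ in age. They measure no spread between animals. Each value after ± is the size of the log2 difference divided by the square root of the test's F statistic, an approximate standard error. Levels are UMIs per 10000. Between ages a rule of 2-fold and 0.5 UMIs per 10000 replaced a test. Intervals at 95% came from scipy 1.17.1, and they cover counting error only. Doublets were kept, and the 10% of cells with the most UMIs were left out as an alternative. Free RNA was taken from barcodes of 100 UMIs or fewer. It made up an estimated 4.50% to 5.75% of the members' sums by 59 genes of other lineages. All UMIs of those genes were counted as free RNA, so the estimate may be too high. On day 1 the erythroid list held 0.00492 UMIs per 10000 in members against 2.70 in free RNA, a lower share than estimated. Named genes are those of the gate and lists, the 15 and 8 largest differences in each direction from enterocytes and goblet cells, and the 8 in each direction in the OLFM4 split and between ages. Genes without a symbol were not named. The fits were tested on simulated counts that held no library effect, so that test does not bear on the library term. Gene positions are from the RefSeq table of Sscrofa11.1. Other alternatives were DESeq2 1.42.0, other scaling, filters, gates and cell sets. Days 14 and 21 had no members and entered only the cell numbers. Some results are not reported here.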

Additional observations from a re-analysis of the deposited data

How the results depend on the processing

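The total of 311 members became 229 to 310 under other gates, lowest without cells holding lymphocyte UMIs, where day 3 had 7 in place of 16 and day 7 had 5 in place of 13. Without hormone-rich cells day 7 had 9. Against enterocytes (1819 higher, 2239 lower), dropping the library term gave 936 and 1326, and with sums of at least 10 cells, which add days 3 and 7, leaving out each library gave 692 to 1945 higher and 942 to 2357 lower, lowest without day 1 (without day 0: 1025 and 1234). Against goblet cells (270 and 855) the number higher was 177 with mitochondrial shares under 15%, 554 without cells holding lymphocyte UMIs, 685 without the deepest 10% of cells, 154 after subtracting free RNA, 454 with sums of at least 10 cells and 733 when only both types were fitted. Without a filter it was 642 higher and 1426 lower, without the library term 6 and 151, and without goblet cells that held crypt or enterocyte genes 1456 and 1646. Leaving out libraries gave 56 to 326 higher and 325 to 942 lower (without day 0: 56 and 325, without day 1: 130 and 530). FABP6 against goblet cells turned from 1.49 to −0.48 with sums of 10 cells and without day 1. In the OLFM4 split (31 and 37), RLE scaling gave 51 higher, DESeq2 gave 4 and 7, no filter 48 and 57, and no library term 0 and 0. Between ages (152 and 26), a minimum of 1 UMI per 10000 gave 91 and 14, and TMM gave 40 lower. The log2 ratio of cycle genes to goblet cells was 0.76 and became 1.19 without the goblet cells just named. Leaving out a library gave 0.53 to 0.99, and 1.72 to 2.23 for enterocytes. The causes were not tested. Leaving a library out of the 20-cell fits or the split left no residual degrees of freedom and gave no value. With 13 and 16 members, days 7 and 3 limit what their levels can show.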

Other observations

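Genes tied to fetal and early growth did not move one way in crypt progenitors. Of 15 tested against enterocytes, 4 were higher (HMGA1, MEST, PEG3 and IGF2BP1) and 4 lower (ASS1, IGF2, SPP1 and IGF2R), with a median log2 difference of −0.12, counts near the 15.4% higher and 19% lower over all genes. HMGA1, a chromatin protein of dividing cells, had 3.60 and 2.95 UMIs per 10000 in members on days 0 and 1, 0.929 and 0.565 in enterocytes and 1.78 and 1.54 in goblet cells, and was also higher than in goblet cells by 1.01 ± 0.23 on the log2 scale. IGF2, a fetal growth factor, had 0.138 and 0.167 against 0.889 and 0.960 in enterocytes. SPP1 (osteopontin), called lower on days 0 and 1 with 0.281 and 1.42 against 2.08 and 2.34, stood at 9.19 and 6.85 in the members of days 3 and 7.

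Of 17 junction and keratin genes, KRT18 and ITGA6 were higher in members than in enterocytes and MUC13, CDH17, CLDN4, LAMA5 and OCLN were lower, with a median of −0.37, counts near the 15.4% higher and 19% lower over all genes. CDH17, the liver-intestine cadherin, had 0.339 and 1.45 UMIs per 10000 against 1.85 and 5.70. Against goblet cells none was higher and 7 were lower, with a median of −0.28, where 7.26% of all genes were lower. The tuft and Paneth lists gave no gene higher than in either type: 5 tuft genes tested had 1 lower (LTC4S) against enterocytes, and 7 Paneth genes had 1 lower (CTSZ). Against goblet cells 4 Paneth genes were lower (PLA2G2A, ITLN2, CTSZ and LYZ), with a median of −3.83. The summed Paneth level in members was 0.388 on day 0 and 0.654 on day 1. Of 10 B lineage genes tested against enterocytes, BANK1 and CD79B were higher and BLNK was lower, near the shares over all genes, with levels at 0.134 and 0.128 UMIs per 10000 for CD79B in members and 1.56 and 1.59 in free RNA.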
